A study of Danio rerio with 2 samples.

Results

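Clock and light-response genes were read on 2 expression arrays of whole zebrafish embryos collected at 24 hours after fertilization. The genes were per2, per3, cry1a, cry5, nfil3-5 and clocka, chosen by symbol as every probe set whose only annotated gene was one of these 6. They held 8 of the 15502 probe sets on each array and 6 of the 8793 genes that could be named. One group of embryos was injected with a morpholino, a synthetic antisense oligomer, against a gene called DrC1q-like. The control group was injected with a version of it carrying 5 mismatches, and the dose was about 5 ng per embryo in both. All embryos were kept at 28.5 °C in embryo medium after injection, and the parent colony lived under 14 hours of light and 10 hours of darkness. The sources used here give neither the strain, the number of embryos behind each array, the lighting of the injected embryos nor the clock hour of injection and collection. The series was made to find genes and pathways that depend on DrC1q-like.

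The vertebrate circadian clock is a transcription loop. The bHLH-PAS proteins Clock and Bmal switch on the period and cryptochrome genes, whose products return to the nucleus and repress Clock and Bmal. A second loop runs through nuclear receptors, among them the Rev-erb repressors of bmal genes. Further bZIP factors act through D-box elements, where Tef and its relatives activate and Nfil3 proteins repress. Zebrafish cells sense light directly, and in them light induces per2 and cry1a, which sets the clock, and also cry5, which encodes a light-driven photolyase for DNA repair.

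With 1 array in each group, differences lack a replicate check and have no test, p-value or standard error. Values are MAS5 signals, 1 per probe set, in arbitrary units that the authors had scaled to nearly the same level on both arrays (means of 98.8 and 99.4 after trimming 2% at each end). Ratios were taken after lifting any signal under 33.3, the median of all signals, to that value as a floor, and a gene counted as measured where either array reached it. Hybridization and scanning took place on separate days for the 2 arrays, and the effects of day and group cannot be told apart. Signals come from whole embryos, in which fewer cells of a type and less RNA per cell cannot be told apart.

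Of the 6 genes 4 were measured, and they went both ways. With the C1q-like morpholino nfil3-5 was 2.93-fold lower and per2 was 1.99-fold lower, whereas cry1a was 1.76-fold higher and cry5 was at least 1.14-fold higher. The genes clocka and per3 lay below the floor on both arrays. The median log2 ratio of the 4 was -0.41, against 0.01 over all 5958 measured genes. That median lies between the ratios of per2 and cry5, and the ratio of cry5 is a lower bound set by the floor. With the floor at the 25th percentile of all signals, the median of the same 4 was -0.18, against 0.05 over all genes measured there. At least 2-fold lower was 1 of the 4, and 4.1% of all measured genes were. None of the 4 was at least 2-fold higher, as 1.68% of all measured genes were. At a limit of 1.5-fold, 2 were lower and 1 was higher, against 14.5% and 10.2% of all measured genes. The 6 were chosen with earlier results of these data known, so a high share among them shows no excess. These shares are over genes and describe the 2 arrays, not the conditions.

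**Figure D1:**
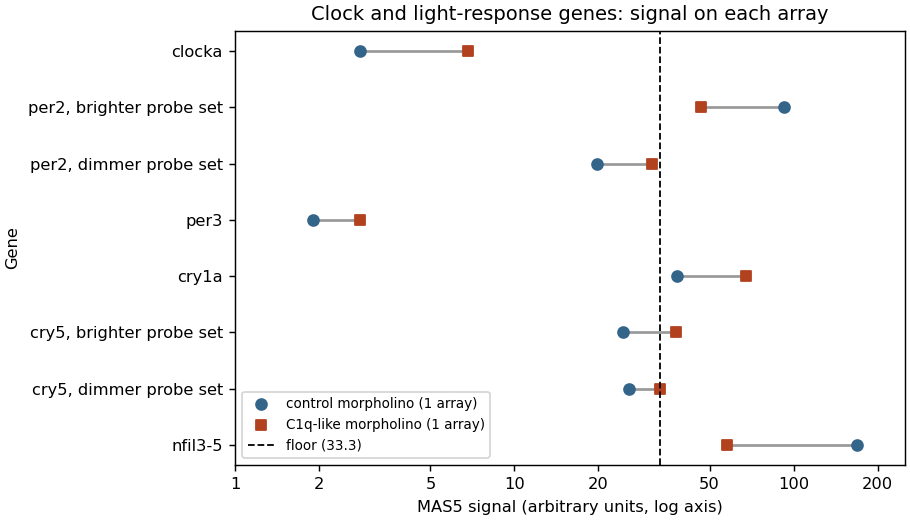
MAS5 signal (log axis) of the 8 probe sets on the control morpholino array (circles) and the C1q-like morpholino array (squares), with the floor of 33.3 as a dashed line. The signal of nfil3-5 and of the brighter per2 probe set was lower with the C1q-like morpholino, and that of cry1a was higher; clocka, per3 and the dimmer per2 probe set lay below the floor on both arrays.

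Among the activators, clocka, the zebrafish counterpart of the mammalian Clock gene, read 6.8 in the C1q-like morpholino group against 2.8 in the control group. Both lay far below the floor. Its partner bmal1a was the only activator of 6 on the array to be measured. It read 33.9 against 45.1, a log2 ratio of -0.41, with the first signal just above the floor. The other 4 lay below the floor on both arrays. The clock paralogue clockb read 15.8 against 15.5, and npas2, which can replace Clock as the partner of Bmal in mammals, read 24.2 against 7.0. The gene bmal1b read 20.5 against 8.6. The brighter probe set of bmal2 read 28.3 against 12.0. No fold is given for these genes, since probe sets under the floor spread widely. Over the 6840 probe sets below the floor on both arrays, the log2 ratio without a floor ran from -2.31 at the 5th percentile to 3.25 at the 95th. Of them 58.9% were higher on the C1q-like morpholino array, with a median of 0.27.

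The period gene per2, a repressor of Clock and Bmal, gave a signal of 46.5 on the C1q-like morpholino array against 92.6 on the control array by its brighter probe set. Both signals were above the floor, and the log2 ratio was -0.99, just inside a 2-fold difference. In the order of log2 ratios it stood 246th from the lowest of 5958 measured genes. Its dimmer probe set read 31.1 against 19.8, below the floor on both arrays and in the opposite direction. The 2 probe sets of per2 therefore did not give the same sign, and the lower level rests on the brighter one. The paralogue per3 read 2.8 against 1.9, far below the floor on both. The genes per1a and per1b were not analysed here.

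The cryptochrome gene cry1a, whose zebrafish product represses Clock and Bmal, had 1 probe set, at 67.4 against 38.2. Both signals were above the floor, the control signal narrowly, and the log2 ratio was 0.82. It stood 232nd from the highest of the measured genes. The log2 ratios of cry1a and per2, both light-induced in zebrafish, were 1.81 apart by the brighter per2 probe set. The dimmer per2 probe set, below the floor on both arrays, lay on the side of cry1a.

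The photolyase gene cry5 had signals close to the floor. One probe set read 37.8 against 24.5 and the other 33.3 against 25.7, so the C1q-like morpholino signals were at or just above the floor and both control signals were below it. The log2 ratio was 0.18 by the first, a lower bound, and 0 by the second, whose brighter signal equalled the floor. Without a floor they were 0.63 and 0.37. Both probe sets thus lay on the same side, by an amount that cannot be fixed at these signals. The gene counted as measured through the C1q-like morpholino array alone, so a ratio below 1 was not possible for it. It stood 2117th from the highest of the measured genes.

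The other cryptochromes were at the floor or below. The gene cry4 read 25.2 against 34. The remaining 5 lay below the floor on both arrays. The brighter probe set of cry2 read 21.4 against 17.6 and its other probe set 3.8 against 12.9, in the opposite direction. The gene cry1b read 13.7 against 12.6. The gene cry3a read 4.0 against 15.3 and cry3b read 3.7 against 2.4. The DASH-type gene cry-dash read 28.9 against 26 by its brighter probe set and 18.3 against 30.5 by the other. Of 10 period and cryptochrome genes on the array, 4 were measured, with 2 higher, 2 lower and a median log2 ratio of 0.08. Both cry5 and cry4 reached the floor on 1 array alone, which fixed their directions, and the median lies between their ratios. Only per2 and cry1a had both signals above the floor.

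The lowest ratio belonged to nfil3-5, of the Nfil3 (E4bp4) family of bZIP proteins, whose mammalian member represses through D-boxes. Its 1 probe set read 57.8 on the C1q-like morpholino array against 169.2 on the control array, both above the floor, for a log2 ratio of -1.55. It stood 42nd from the lowest of the measured genes. Only 1 other of the 6 nfil3 genes in the RefSeq gene table had a probe set used here. This was nfil3-6, which read 33.9 against 15.5 by one probe set, the first signal just above the floor, and 5.1 against 2.9 by the other, below it.

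The genes nearest in log2 ratio to nfil3-5, among 4758 with a proper symbol and both signals at or above the floor, were ddx61 and nfatc2ip. The gene ddx61 read 214.8 against 633.5, a log2 ratio of -1.56, and nfatc2ip read 42.2 against 121.1, at -1.52. Likeness here is the difference of log2 ratios over 2 arrays, 0.01 and 0.03, and describes nothing further.

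The spread of log2 ratios at the same brightness gives a scale for these values. Measured genes were divided into 8 equal classes by mean log2 signal. The class of per2 and cry1a held 744 genes with mean signals from 49.2 to 67.5, and its log2 ratios ran from -1.04 at the 5th percentile to 1.01 at the 95th. Both genes lay within that range: 48 of the 744 were as low as per2 or lower, and 57 were as high as cry1a or higher. The floor of 33.3 limits how far a ratio can go at these mean signals, more tightly than in the brighter class of nfil3-5. The class of nfil3-5 held 745 genes between 95 and 141.9 and ran from -1.18 to 0.72. The log2 ratio of nfil3-5 lay below that range, and 13 of the 745 were as low or lower. Probe sets of the same gene also differed. In the 789 genes that had more than 1 measured probe set, the log2 ratios of the brightest pair were a median of 0.36 apart, and 1.04 at the 90th percentile. The brighter probe set passed 1.5-fold in 239 of these genes, and the dimmer lay on its side of 0 in 175 of them. In 658 of the 789 genes the dimmer probe set read under 200 on both arrays. For these the median and 90th percentile were 0.42 and 1.09, and the dimmer lay on the same side in 146 of 207. The genes nfil3-5 and cry1a had 1 probe set each, and the dimmer probe set of per2 was not measured, so all of these genes lack this check.

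**Figure D2:**
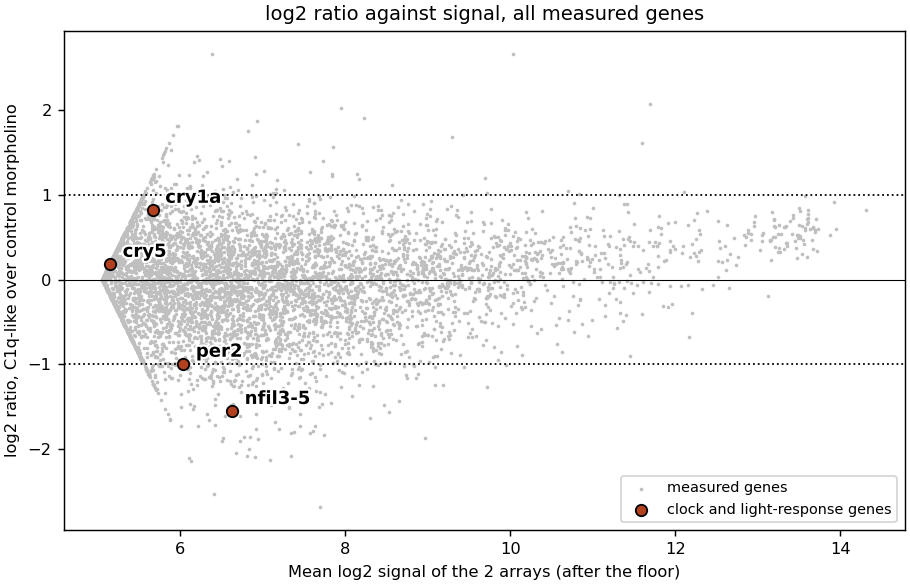
log2 ratio of C1q-like over control morpholino against mean log2 signal after the floor, for 5958 measured genes (grey) and the 4 measured clock and light-response genes (red), with dotted lines at 2-fold. The gene nfil3-5 lies at -1.55 below the main cloud, per2 on the lower dotted line, and cry1a and cry5 in the dim part of the plot, where the floor limits how far a ratio can go.

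Besides nfil3-5, the 3 D-box and second-loop genes with both signals above the floor were close to even. The PAR bZIP gene tefa, an activator at D-boxes that takes part in the light induction of per2 in zebrafish cells, read 223.8 against 231.4 and, by a second probe set, 57.0 against 57.3. Its log2 ratios were -0.05 and -0.01, and the first was 1.5 above that of nfil3-5. The bHLH repressor gene bhlhe40 (Dec1) read 204.7 against 203.6, a log2 ratio of 0.01. The nuclear receptor gene nr1d2b, a Rev-erb repressor of bmal genes, read 73.5 against 69.5, at 0.08. The gene rorab read 30.4 against 33.8, at the floor. Below the floor on both arrays were bhlhe41, at 17.7 against 19.1, and nr1d2a, at 24.2 against 10.1. So were tefb, at 6.7 against 5.7 by its brighter probe set, and rorcb, at 6.3 against 16.5. The gene nr1d1 was not analysed here. Of 10 genes in this group 6 were measured, with 3 above and 3 below a ratio of 1 and a median log2 ratio of -0.01. Of the 4 with both signals at or above the floor 1, nfil3-5, was past 1.5-fold, as were 25% of all such genes. It was among the 6 chosen with earlier results known, and without it 3 genes remain, all within 1.5-fold. The other 2 measured genes, nfil3-6 and rorab, reached the floor on 1 array alone, which fixed the direction of each ratio. For them the ratio gives only a lower bound on the size of the difference.

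Most enzymes and partners that modify clock proteins could be read. Of 14 on the array 12 were measured, each with both signals above the floor, 5 higher and 7 lower, with a median log2 ratio of -0.07. Against 25% of all genes with both signals at or above the floor, 1 of the 12 passed 1.5-fold. This was csnk1da, encoding a casein kinase 1 delta that phosphorylates period proteins, at 178.2 against 327.1, 1.84-fold lower. Its dimmer probe set read 24.2 against 37.6, also lower, with the first signal below the floor. The paralogue csnk1db read 135.2 against 173.8, a log2 ratio of -0.36. At the other end csnk2a2b, encoding a catalytic subunit of casein kinase 2, read 52.4 against 36.8, at 0.51. The F-box gene fbxl3a, whose mammalian counterpart directs cryptochromes to degradation, read 53.3 against 57.2. The Clock and Bmal repressor gene ciarta read 68.6 against 74.2, and both were within 1.1-fold.

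Genes for DNA repair and peroxide removal that respond to light in zebrafish were few on the array. Of 5, 3 were measured, 1 of them with both signals above the floor. The ultraviolet damage sensor gene ddb2 read 64.6 against 91.2, a log2 ratio of -0.50. The DNA glycosylase gene neil1 read 42.5 against 17.8, a difference of at least 0.35 on the log2 scale, and the catalase gene cat read 28.9 against 35.8, so each reached the floor on 1 array alone, which fixed the direction of its ratio. The damage sensor gene xpc lay below the floor by both probe sets.

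Light sensing in the pineal organ and retina was barely visible. Of 16 genes on the array 15 lay below the floor on both arrays. The exception was exorh, the pineal opsin gene, at 36.4 against 20.7, a log2 ratio of at least 0.13. It reached the floor on the C1q-like morpholino array alone, which fixed the direction of its ratio. The gene aanat2, encoding the enzyme that times melatonin synthesis in the pineal organ, read 5.4 against 2.5.

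In all, the wider lists held 55 genes on the array besides the 6, of which 23 were measured. Of those, 10 were higher, 13 were lower, and the median log2 ratio was -0.03. That median is the ratio of cry4, which reached the floor on the control array alone. Of the 23, 17 had both signals at or above the floor. Among these, csnk1da passed 1.5-fold and 16 did not, against 25% of all 4977 genes with both signals at or above the floor. Clock protein modifiers made up 12 of the 17, and no period, cryptochrome or pineal gene was among them. The count of 17 leaves out the 6, which were chosen with earlier results known. With the 6 included, 20 genes had both signals at or above the floor, and of these 3 were at least 1.5-fold lower and 1 higher. The other 6 of the 23 had 1 signal below the floor, which fixed their directions. Their ratios are lower bounds on the size of a difference, higher or lower, and give no side of that limit. Below the floor on both arrays were 58.2% of the 55, against 32.2% of all 8793 genes.

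**Figure D3:**
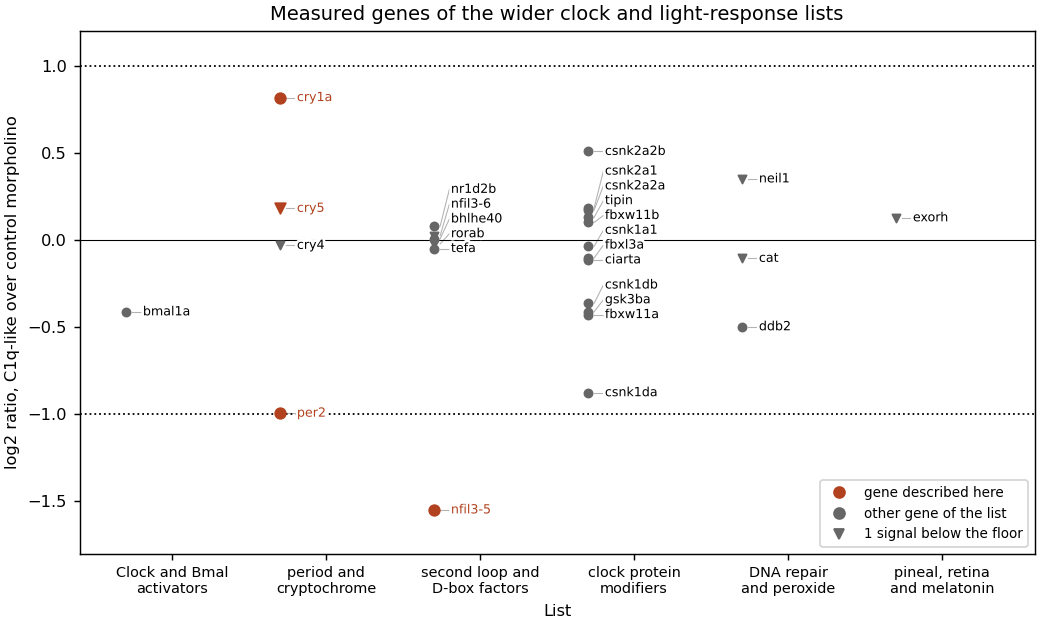
log2 ratio of C1q-like over control morpholino for each measured gene of 6 lists, by list. The 4 genes described here are in red, triangles mark genes with 1 signal below the floor, and dotted lines mark 2-fold. The genes nfil3-5, per2, cry1a and csnk1da lie past 1.5-fold. Triangles show a lower bound on the size of a difference, in either direction, not the size itself.

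Markers of the main tissues were read to place these values. Muscle, red cell, epidermal, notochord, neural and yolk layer markers were all measured, 15 of 15 on the array. The 4 pineal markers were near or below the floor, and no hatching gland marker was on the array. The 3 neural markers were all lower with the C1q-like morpholino, with summed signals of 262.3 against 551.3. By their brightest probe sets the log2 ratio was -2.53 for elavl3, -1.07 for pax6a and -0.36 for sox19a, and a dimmer probe set of elavl3 was at 0.58. The 3 red cell markers were all higher, with sums of 22897.1 against 15798.9, as were the 2 epidermal markers, at 20675.2 against 10932.1. Both yolk layer markers were higher too, at 13370.5 against 8803.3. Summed muscle signal was 21677.6 against 19634.3. The 2 notochord markers summed to 713.8 against 932.4, with log2 ratios of -0.44 for col2a1a and at least 0.29 for col8a1a, whose control signal was below the floor. Neural markers thus lay in the same direction as nfil3-5, per2 and csnk1da, as did the notochord sum, though its 2 markers split. Epidermal, red cell and yolk markers lay in that of cry1a. Muscle markers were mixed, 2 higher and 1 lower, with their sum on the side of cry1a. By rank within each array several of the brightest markers hardly moved or fell. Probe sets with a lower signal made up 99.84% against 99.83% for hbae3, 99.27% against 99.30% for hbbe3 and 99.62% against 99.86% for actc1b. For gata1a they made up 72.3% against 52.2%, and for krt4 99.93% against 99.63%. Marker ratios were taken under the reported setting alone. The part of tissue share in the clock gene values was not tested.

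**Figure D4:**
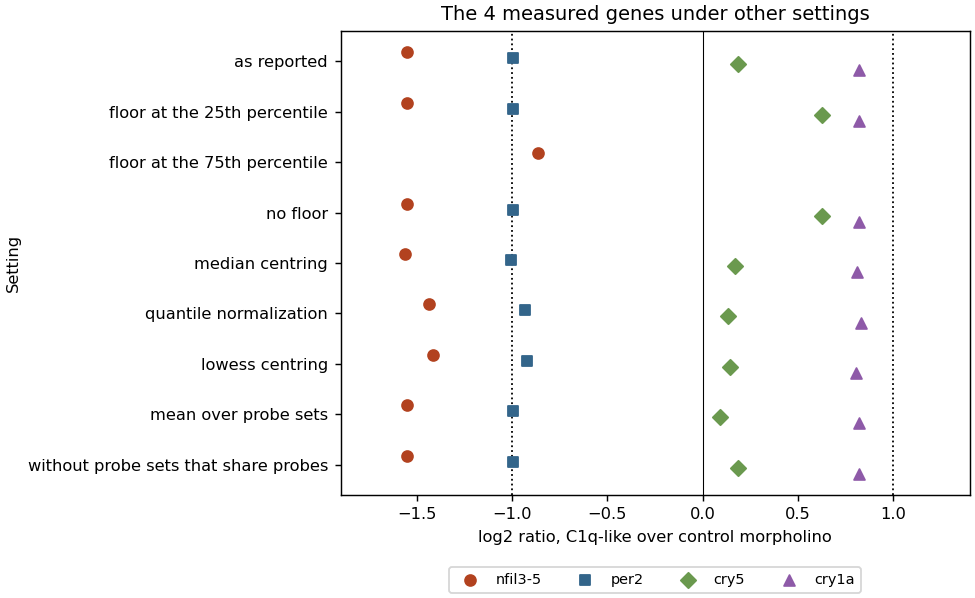
log2 ratio of C1q-like over control morpholino of the 4 measured genes as reported and under 8 other settings, with dotted lines at 2-fold. Each gene keeps its side of 0 wherever it was measured, though several settings fix that side by construction. With the floor at the 75th percentile nfil3-5 alone was measured, at -0.86.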

How the data were processed

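Total RNA (8 μg per sample, per the labels' protocols) was converted to biotin-labelled cRNA and hybridized to Affymetrix zebrafish arrays. The deposited values were linear signals, 1 for each probe set of an array, which the authors made with MAS5 per the submitters' processing notes. Its version, scaling target and detection calls are not given in the sources used here. Of 42 other settings in the deposited instrument files, 2 differed between arrays, the days of hybridization and scanning. Groups came from the sample descriptions.

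Genes were named from the platform annotation through Entrez numbers and the RefSeq gene table of GRCz12tu, without its coordinates. A single gene was named by 10795 of 15502 probe sets, 10711 of them found in that table. Each gene was represented by its brightest probe set (mean log2 signal). Signals were floored at 33.3 and log2 ratios taken; with 1 array per group nothing was tested, and the number of arrays limits the precision. Members, lists, floor and limits were chosen with earlier results of these data known. Named were all 6 genes, list genes at least 1.5-fold apart, a fixed set of core clock genes, the 2 nearest genes in log2 ratio, and examples added after their values were seen. Alternatives were other floors, centrings and probe set choices. Steps were tested on simulated data, with changes planted only in genes brighter on the control array than per2, cry1a and cry5. Changes at dimmer control signals were not covered. Software was Python 3.11.15, numpy 2.4.6, pandas 2.3.3, scipy 1.17.1, statsmodels 0.14.6 and matplotlib 3.10.9.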

Additional observations from a re-analysis of the deposited data

How the results depend on the processing

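The log2 ratios of per2, cry1a and cry5 kept their sign under the 7 alternatives in which they were measured, and that of nfil3-5 under all 8. For per2, cry1a and nfil3-5, 4 alternatives leave the value as it was by construction (the lower floor, no floor and both probe set choices). The dimmer per2 probe set, of opposite sign, entered none of the alternatives. The control signal of cry5 was below 33.3, so wherever that floor was kept its sign could hardly change. The log2 ratio of nfil3-5 was -0.86 with the floor at the 75th percentile (93.1). There it was the only 1 of the 6 measured, through the control array alone, which fixed its sign, and 0 were at least 2-fold lower. With median centring 2 were at least 2-fold lower, since per2 came to -1.01. With no floor all 6 counted as measured, 1 (clocka, at signals under 10) was at least 2-fold higher, and their median log2 ratio was 0.59 instead of -0.41. Some list medians changed sign. The activators, at -0.41 with bmal1a as their 1 measured gene, came to 0.75 with the floor at the 25th percentile (12.2) and 1.25 with none. From values near 0, clock protein modifiers came to 0.034 with the floor at the 75th percentile and 0.016 with quantile normalization, and second-loop factors to 0.074 with quantile normalization and 0.032 with lowess centring (span 0.3). The median of all measured genes was -0.012 with the floor at the 75th percentile. The pineal and retinal list came to 1.05 with no floor. Over all genes, 449 were at least 2-fold lower and 545 higher with the floor at the 25th percentile, 103 and 31 at the 75th, and 893 and 1116 with none, against 244 and 100 as reported. The lower share of genes past 2-fold, 70.9% as reported, was 57.7% with quantile normalization and 61.7% with lowess centring. The cause of these shifts was not tested, beyond the number of genes each floor leaves. No paired analysis was possible because each group had 1 array.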

Other observations

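Of the 15 pineal, retinal and melatonin genes below the floor of 33.3 on both arrays, 11 were higher with the C1q-like morpholino by their brightest probe set and 4 were lower, beside 58.9% higher among all probe sets below the floor. That percentage counts every such probe set, not the brightest of each gene, so the units differ. Examples, chosen after their values were seen, are given from both sides. The melatonin receptor gene mtnr1aa read 32.6 against 0.5 and the melanopsin gene opn4.1 read 25.7 against 2.4, whereas the receptor gene mtnr1bb read 6.0 against 15.6 and the photoreceptor homeobox gene crx read 2.9 against 8.6. The receptor gene mtnr1ba read 31.9 against 2.5 by one probe set and 2.4 against 17.0 by the other, so its probe sets disagreed. Those of gnat2 disagreed as well, at 16.5 against 6.3 and 1.5 against 3.8. No fold is given at these signals.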
